A study of Homo sapiens with 18 samples.

Results

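The reads of the 18S, 28S and 5.8S ribosomal RNAs (rRNAs) in small RNA libraries of HEK293T cells, a human embryonic kidney line, are described here as fragments of rRNA, since a small RNA library holds short pieces of these long molecules. The rows were chosen by their annotation alone: rRNA as the RNA type, a nuclear chromosome, and a name or family entry of 18S, 28S or 5.8S rRNA. This gave 99 of the 175935 rows of the table, 21 for 18S, 64 for 28S and 14 for 5.8S. For each rRNA the rows were also summed, with rows of identical counts taken once, and these totals are called the 18S, 28S and 5.8S sums.

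Cells had been transfected for 48 h with an siRNA against SSB (siSSB) or with a scramble siRNA (control), with the same transfection reagent in both. The SSB protein, La, protects new RNA polymerase III transcripts by holding their 3′ ends, and the libraries ask which small RNAs respond to its loss and where in the cell they lie. RNA came from whole cells (total), the nuclear fraction (nuc) or the cytoplasmic fraction (cyto), with 3 replicates in each of the 6 groups, which the design text calls biological. All 18 library titles carry the mark Plus_PNK, whose effect on the RNA ends the labels do not explain.

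RNA polymerase I makes 18S, 5.8S and 28S rRNA as a single precursor in the nucleolus, in that order, from repeats on the short arms of the acrocentric chromosomes. Spacers before, between and after them are cut away while the ribosomal subunits are built. 18S is the RNA of the small subunit, and 5.8S and 28S belong to the large subunit together with 5S rRNA, which RNA polymerase III makes elsewhere. Mature rRNA sits mostly in cytoplasmic ribosomes. The genome also holds scattered copies of pieces of rRNA, many of them diverged, and reads of true rRNA can be assigned to such copies where the sequence is the same.

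That last point decides what a row can mean, so 4 stretches are shown as they stand in the rRNA repeat and in a scattered copy, from hg38 and written in the direction of the rRNA. Capitals mark the bases that differ, and positions count from the first base of each mature rRNA. The first 3 pairs are 28S stretches whose copies differed between nucleus and cytoplasm in opposite directions.

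28S bases 26 to 105 in the repeat, chr21:8441171-8441250, plus strand: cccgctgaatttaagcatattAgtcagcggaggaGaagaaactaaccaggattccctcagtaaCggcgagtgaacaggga
Copy at chr17:35151152-35151231, minus strand: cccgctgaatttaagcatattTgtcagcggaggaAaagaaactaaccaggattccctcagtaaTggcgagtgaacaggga
28S bases 2570 to 2770 in the repeat, chr21:8443715-8443915, plus strand: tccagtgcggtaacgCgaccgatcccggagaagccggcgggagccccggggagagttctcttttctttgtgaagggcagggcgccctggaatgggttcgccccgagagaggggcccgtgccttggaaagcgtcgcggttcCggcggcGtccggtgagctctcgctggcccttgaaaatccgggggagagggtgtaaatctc
Copy at chr5:71850915-71851115, plus strand: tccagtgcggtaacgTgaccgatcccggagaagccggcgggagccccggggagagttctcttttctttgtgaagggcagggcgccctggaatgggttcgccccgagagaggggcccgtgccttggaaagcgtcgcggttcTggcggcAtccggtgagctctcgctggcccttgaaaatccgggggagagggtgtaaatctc
28S bases 4229 to 4324 in the repeat, chr21:8445374-8445469, plus strand: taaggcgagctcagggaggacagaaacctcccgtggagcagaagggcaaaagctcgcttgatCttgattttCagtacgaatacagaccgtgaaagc
Copy at chr2:202346278-202346373, minus strand: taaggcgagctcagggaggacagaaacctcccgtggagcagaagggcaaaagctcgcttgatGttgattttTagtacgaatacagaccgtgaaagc

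The copies on chromosomes 17 and 5 differ from the repeat at 3 bases each, over 80 and 201 bases, and the copy on chromosome 2 at 2 of 96 bases. Long runs between those bases are the same in both, so a short read from such a run cannot be told apart from a read of true 28S rRNA. The last pair shows the opposite case, a 5.8S copy that differs along its whole length, by 13 substitutions and 2 missing bases.

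5.8S bases 2 to 154 in the repeat, chr21:8439823-8439975, plus strand: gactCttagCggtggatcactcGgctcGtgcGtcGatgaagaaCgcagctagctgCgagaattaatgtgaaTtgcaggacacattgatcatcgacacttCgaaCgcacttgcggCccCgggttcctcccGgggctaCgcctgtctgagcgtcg
Copy at chr14:16057472-16057622, plus strand: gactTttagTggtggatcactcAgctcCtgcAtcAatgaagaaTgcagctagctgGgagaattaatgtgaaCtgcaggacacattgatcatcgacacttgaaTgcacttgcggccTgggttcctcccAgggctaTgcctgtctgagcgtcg

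Counts in the 18 libraries summed to between 21565995 and 158244813 per column, but overlapping rows count the same read, and the sum over 16 RNA classes with identical rows taken once was 4265145 to 8492777. Depth therefore limited the rare rows and not the sums. Small nucleolar RNAs held 64.7 to 76.5% of the class sum in nuc and 4.53 to 7.37% in cyto, as the fraction labels say. Of the other nuclear markers U2 followed the label too, U6 overlapped, and MALAT1 and NEAT1 went the other way at no more than 0.0136% of the class sum. Of 6 cytoplasmic markers, 5 followed the label in control and in siSSB cells. No row is named SSB. A row over SSB exons (HSALNG0020274, chr2:169806811-169811069) held 12 to 19 counts in control against 547 to 1267 in siSSB total RNA, 1 to 5 against 5 to 14 in nuc, and 25 to 32 against 983 to 3304 in cyto. It was higher in siSSB, so these libraries do not show the loss of SSB mRNA, and siSSB and control name libraries by their labels.

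Most of the rRNA counts lay in few rows. The 13 rows on chromosome 21 that matched the reference at 99% or better held 93.4% of the mean counts of the 99 rows (91.9% for 18S in 5 rows, 92.5% for 28S in 4 and 99.7% for 5.8S in 4). The 18S rows with the highest means lay at chr21:8392641-8394559 and chr21:8209606-8211524, which the table names RNA18SN3, and at chr21:8436851-8438769 (RNA18SN1), with mean counts of 93979, 93911 and 93092 per library. For 28S they lay at chr21:8441123-8446235 (RNA28SN1), chr21:8213865-8218965 (RNA28SN2) and chr21:8396903-8402004 (RNA28SN3), with means of 317776, 312290 and 306877. The 4 identical 5.8S copies on chromosome 21 had means of 68291 to 68358. A chi-square test between them gave a p under 0.05 in 1 of 18 libraries (control cyto replicate 3, p = 0.0092, not adjusted over the libraries). Reads of identical copies cannot be assigned to 1 repeat, and how the table shares them is not known, so the repeats are not compared with each other. Of the other 86 rows, on 21 chromosomes together with those above, many are short or diverged. Among these 86, identity reached down to 68.9%, and row length without flanks ran from 62 to 4213 nt. A mean below 50 counts was found for 46 of the 99 rows, and 2 rows had no count in any library.

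rRNA fragments were the largest share of cytoplasmic libraries. The 3 sums together took 51.3, 50.9 and 49.2% of the class sum in control cyto and 51.8, 53.1 and 51.1% in siSSB cyto, for replicates 1, 2 and 3. In total RNA they took 22.7, 27.6 and 32.0% in control and 33.5, 43.4 and 27.3% in siSSB. In nuc they took 11.8, 11.8 and 17.1% in control and 12.5, 19.8 and 12.5% in siSSB. The order was thus cyto, total, nuc with no overlap between these RNA types, while control and siSSB overlapped within each. A share falls when another RNA rises, so a lower rRNA share in nuc cannot be told apart from a higher amount of small nucleolar RNA.

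**Figure D1:**
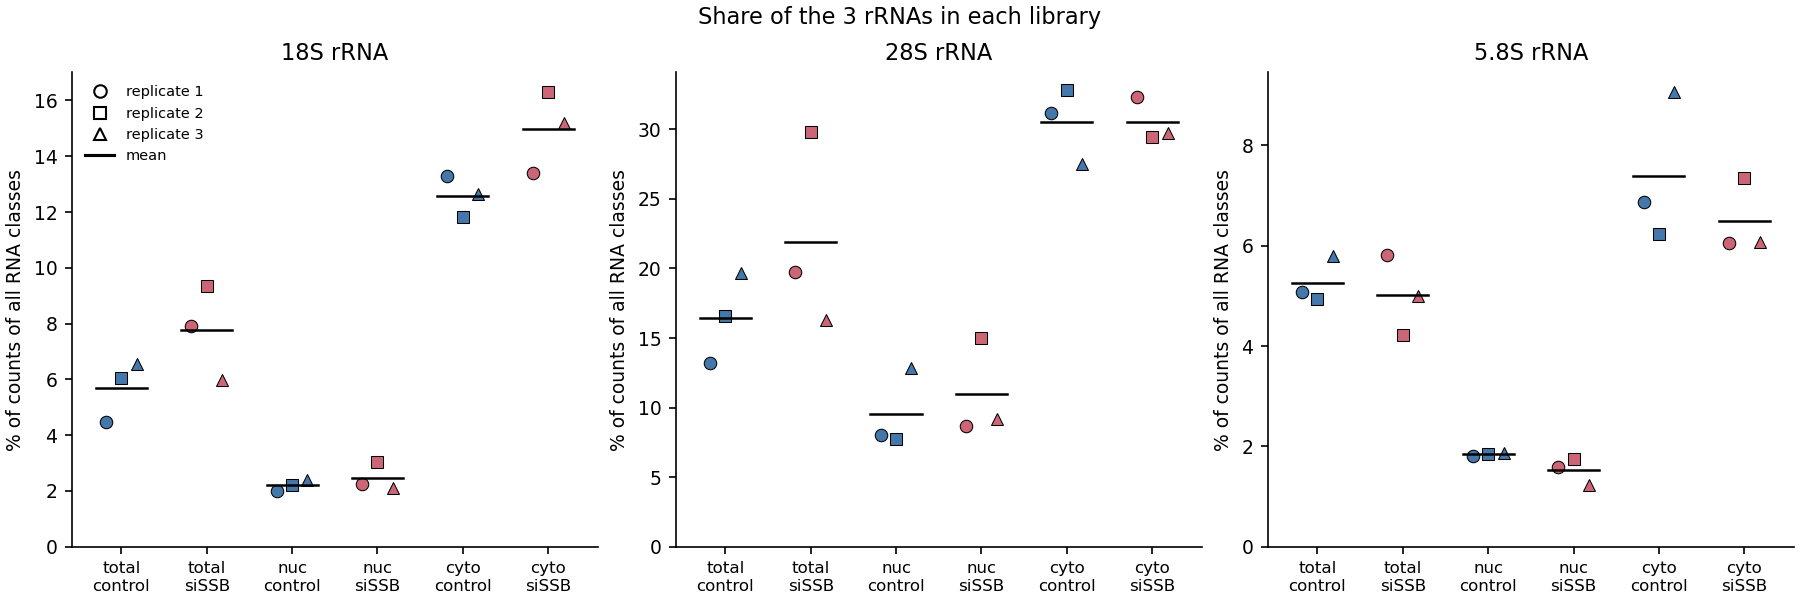
Percent of the counts of all RNA classes (y axis) taken by 18S, 28S and 5.8S rRNA, a panel each, in total, nuc and cyto RNA of control (blue) and siSSB (red) cells, with circles, squares and triangles for replicates 1, 2 and 3 and a line at the mean. The shares are highest in cyto and lowest in nuc, and 28S spreads most between replicates, up to 29.8% in siSSB total replicate 2.

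28S fragments made the largest part of the 3. Their share was 31.1, 32.8 and 27.5% in control cyto and 32.4, 29.5 and 29.8% in siSSB cyto, 13.2, 16.6 and 19.7% in control total and 19.8, 29.8 and 16.3% in siSSB total, and 8.03, 7.77 and 12.8% in control nuc and 8.65, 15.0 and 9.20% in siSSB nuc. Replicate 2 of siSSB total and siSSB nuc and replicate 3 of control nuc stood above their groups. In these same nuclear libraries 7SL RNA, the RNA of the signal recognition particle, was also high, with 18832 counts in siSSB nuc replicate 2 and 16033 in control nuc replicate 3 against 3444 to 4529 in the other nuclear libraries. Its part in the 28S values was not tested, and some of the results that rest on these libraries are given with and without them.

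18S shares lay closer together within groups. They were 13.3, 11.8 and 12.6% in control cyto, 13.4, 16.3 and 15.2% in siSSB cyto, 4.47, 6.06 and 6.54% in control total, 7.93, 9.36 and 5.99% in siSSB total, 2.0, 2.21 and 2.40% in control nuc and 2.25, 3.04 and 2.11% in siSSB nuc. The siSSB cyto libraries were all above the highest control, while the groups overlapped in total and nuc. For 5.8S the shares were 6.87, 6.22 and 9.06% in control cyto, 6.05, 7.34 and 6.08% in siSSB cyto, 5.08, 4.93 and 5.79% in control total, 5.81, 4.22 and 5.00% in siSSB total, 1.80, 1.84 and 1.87% in control nuc and 1.59, 1.74 and 1.23% in siSSB nuc. Here the siSSB nuc libraries were all below the control nuc libraries, and the groups overlapped in total and cyto.

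Ratios between the 3 rRNAs, which leave the same precursor, do not depend on the other RNAs of a library. The ratio of 28S to 18S counts was 4.01, 3.52 and 5.34 in control nuc against 2.34, 2.78 and 2.18 in control cyto. In siSSB cells it was 3.84, 4.94 and 4.36 in nuc against 2.41, 1.81 and 1.96 in cyto. Every nuclear library was above every cytoplasmic one. Total RNA lay between the medians, at 2.95, 2.73 and 3.01 in control and 2.49, 3.18 and 2.72 in siSSB. Over both cell groups the nuclear ratio was higher by 0.95 on the log2 scale (two-sided exact permutation test stratified by siRNA, p = 0.005, the smallest it can give; Benjamini-Hochberg adjusted p = 0.07 over 14 ratio tests), which does not pass 0.05 after adjustment. Within control cells the difference was 0.80 and within siSSB cells 1.09, each with an exact p of 0.1, the smallest that 3 libraries against 3 allow. Leaving out any 1 library gave 0.86 to 1.01 over both cell groups, 0.63 to 0.93 in control and 1.00 to 1.21 in siSSB cells. The size also depended on which rows were summed. Across the ways of summing the difference ran from 0.68 to 0.95 over both cell groups, from 0.50 to 0.80 in control and from 0.85 to 1.09 in siSSB cells.

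Knockdown did not shift this ratio past the spread, with differences of -0.06 in total, 0.05 in nuc and -0.24 in cyto on the log2 scale (exact permutation p of 0.6, 0.8 and 0.3). The ratio of 5.8S to 28S, both parts of the large subunit, was 0.225, 0.237 and 0.146 in control nuc against 0.183, 0.116 and 0.134 in siSSB nuc. In total RNA it was 0.385, 0.297 and 0.294 in control against 0.294, 0.142 and 0.308 in siSSB, and in cyto 0.221, 0.189 and 0.330 against 0.187, 0.249 and 0.204. Stratified over RNA types it was lower in siSSB by 0.37 on the log2 scale (exact permutation p = 0.0453, adjusted p = 0.233), and in each RNA type alone the groups overlapped. The low values of siSSB nuc replicate 2 and siSSB total replicate 2 are also the libraries with the highest 28S shares of their groups. In total RNA alone the difference was -0.46, and -0.10 without siSSB total replicate 2. In nuc it was -0.48, with -0.34 without siSSB nuc replicate 2 and -0.70 without control nuc replicate 3. With any 1 library left out the stratified difference ran from -0.45 to -0.25.

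**Figure D2:**
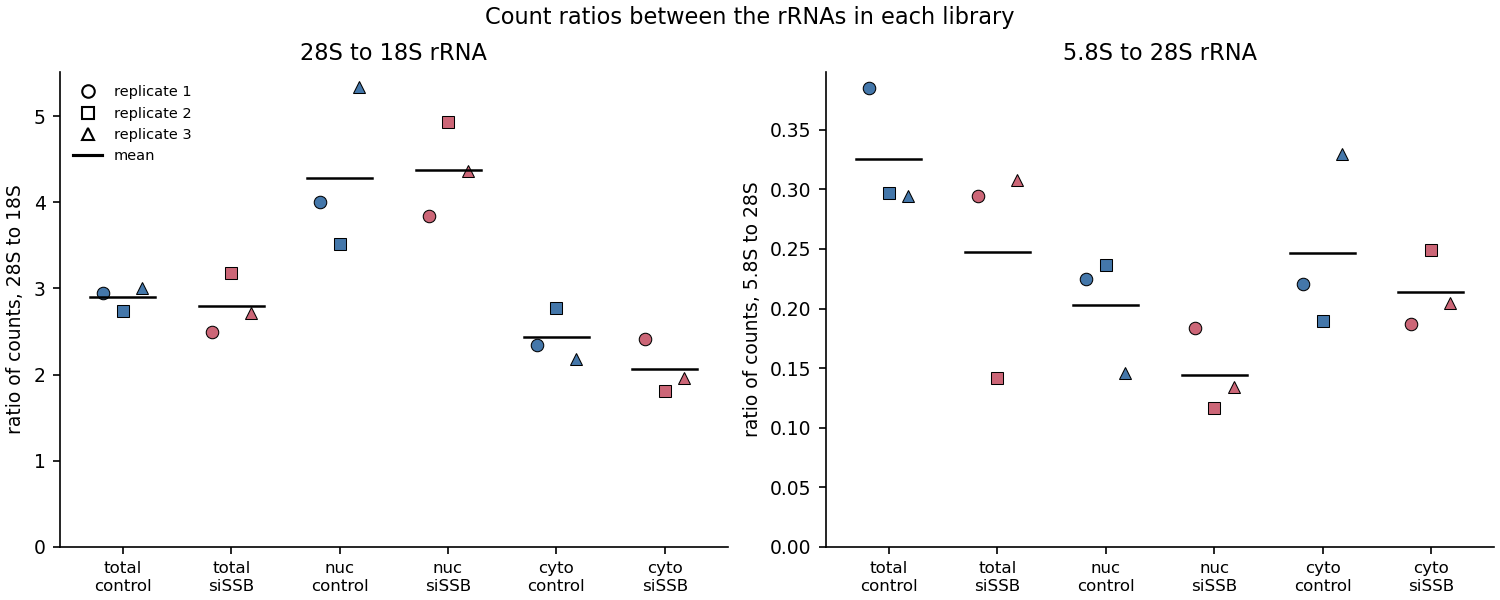
Ratio of summed counts (linear y axes), 28S to 18S and 5.8S to 28S, in each library by group, with circles, squares and triangles for replicates 1, 2 and 3 and a line at the mean. All 6 nuclear libraries lie above all 6 cytoplasmic libraries for 28S to 18S, while control (blue) and siSSB (red) overlap within each RNA type for both ratios.

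After SSB knockdown no rRNA row passed the test. By edgeR's quasi-likelihood test with Benjamini-Hochberg adjustment over all features tested, 0 of 69 tested rows were called in total RNA, 0 of 52 in nuc and 0 of 75 in cyto, where 1.33%, 0.378% and 0.291% of all tested features were called. Of those features 0.367% were higher and 0.965% lower in total, 0.0291% and 0.349% in nuc, and 0.0211% and 0.27% in cyto. The smallest adjusted p among the rRNA rows was 0.132, 0.18 and 0.62, and DESeq2 also called 0 in each. An unadjusted p under 0.05 was reached by 3, 10 and 2 of them. Over all tested features it was reached by 2301 of 13883 in total, 956 of 6873 in nuc and 1260 of 18921 in cyto. The median log2 fold change of the tested rows, siSSB against control, was 0.18, -0.10 and -0.05, beside -0.01, 0.08 and 0.01 over all features.

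The sums gave the same picture with tighter limits in nuc. The 18S sum differed by 0.05 ± 0.38 (SE) in total, -0.13 ± 0.19 in nuc and 0.08 ± 0.25 in cyto on the log2 scale, with adjusted p of 0.971, 0.765 and 0.99. For the 28S sum the differences were -0.01 ± 0.41, -0.10 ± 0.22 and -0.16 ± 0.24, with adjusted p of 0.997, 0.856 and 0.955. The direction of the small nuclear 28S difference rested on the 28S-rich libraries: it was -0.27 without siSSB nuc replicate 2 and 0.12 without control nuc replicate 3.

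5.8S was the lowest of the 3 in each RNA type after knockdown, at -0.44 ± 0.41 in total, -0.56 ± 0.19 in nuc and -0.37 ± 0.28 in cyto (adjusted p of 0.655, 0.239 and 0.871), although in total it was 0.06 by library size alone and 0.21 by the total of small nucleolar RNAs. In nuc the 5.8S sum was 1133 ± 38.7 CPM (counts relative to the TMM-scaled library size, SD, n = 3) in control and 771 ± 87.1 in siSSB, with ranges of 1091 to 1168 and 677 to 850 that do not overlap. Its unadjusted edgeR p was 0.0093, so the difference was larger than the spread between replicates taken alone and did not pass the adjustment over all features. 5S rRNA, the large subunit RNA that La binds as a new transcript, had a nuclear difference of -0.64 ± 0.20 (adjusted p = 0.201). The nuclear minus the cytoplasmic knockdown effect was -0.35 ± 0.38 for 18S, -0.09 ± 0.38 for 28S and -0.32 ± 0.39 for 5.8S, none past the test (adjusted p of 0.982, 1.0 and 0.99). In that comparison 0 of 84 tested rows passed where 0.0133% of all features did (0.008% higher, 0.00533% lower), and DESeq2 called 0. There 4 rows had an unadjusted p under 0.05, beside 1836 of 37493 features.

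**Figure D3:**
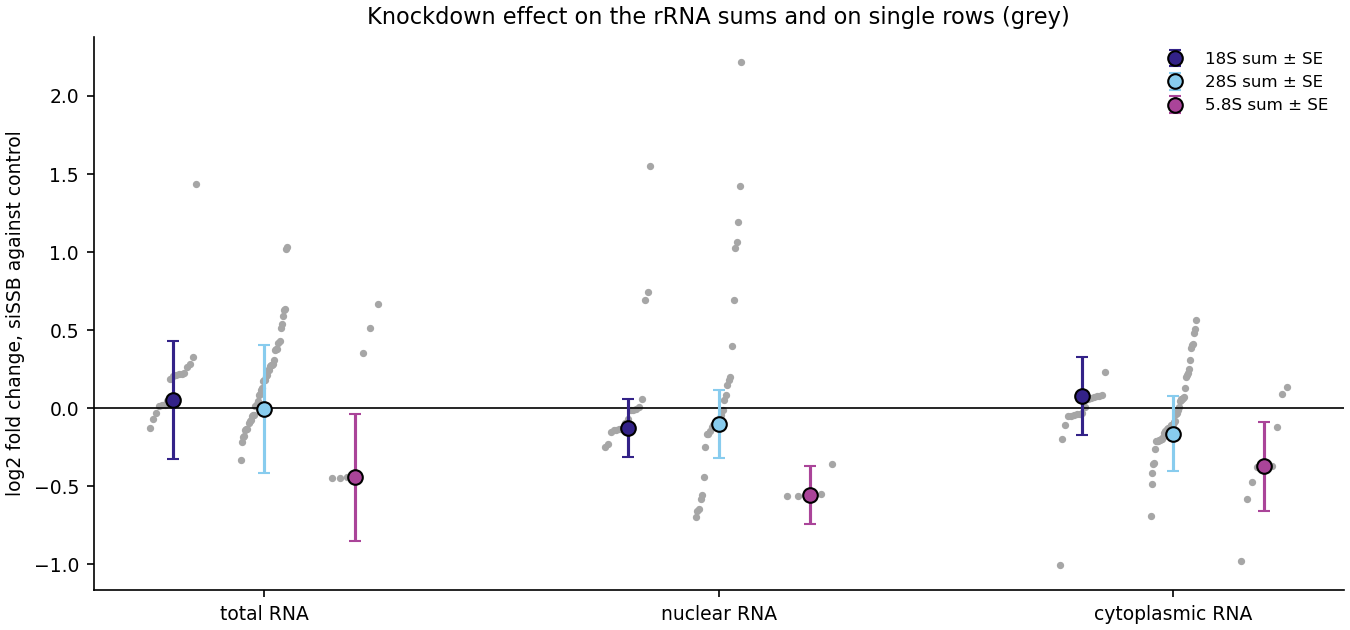
Log2 fold change, siSSB against control (y axis), in total, nuc and cyto RNA, with a grey point for each tested rRNA row and a marker with its standard error for the 18S, 28S and 5.8S sums. The sums lie within 0.56 of 0, and the 5.8S sum is the lowest in each RNA type.

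Nucleus and cytoplasm differed at many rows, in both directions. In control cells 8 of 75 tested rows were higher in nuc and 31 lower, and in siSSB cells 8 of 79 were higher and 32 lower. Of all tested features 23.3% were called in control cells (9.21% higher, 14.1% lower) and 25.4% in siSSB cells (10.8% and 14.5%). The 6 rows called higher in both cells are 75% of each list, and the 26 called lower in both are 83.9% of the control list and 81.2% of the siSSB list, with nuclear and cytoplasmic libraries separate in the 2 cell groups. A row passed the filter on low counts if 1 fraction was high enough, so these counts describe the tested rows and not all 99.

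These directions are relative to the scaling. TMM factors were 3.63 to 4.81 in cyto and 0.229 to 0.248 in nuc of control cells, and the median log2 difference over all features was -0.27 in control and -0.19 in siSSB cells. Against those medians the tested rRNA rows had a median of -0.60 and -0.83, with a range of -0.70 to -0.58 and -0.85 to -0.81 over 6 scalings. Scaled by the total of all RNA classes, the split was 1 higher and 73 lower in control and 3 and 73 in siSSB cells. Most features fell with them on that scale. In control cells 1177 of 26774 were higher and 24495 lower, and in siSSB cells 1139 of 26274 were higher and 23000 lower. The statements that follow are about differences between rows, which a scaling moves together.

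The sums themselves did not pass the test. The 28S sum was higher in nuc by 0.67 ± 0.33 in control (adjusted p = 0.155) and 0.55 ± 0.28 in siSSB cells (adjusted p = 0.155), at 13499 to 14246 CPM in control cyto against 17760 to 29585 in control nuc. Without control cyto replicate 3 it was 0.62 and passed, with an adjusted p of 0.025. The 18S sum gave -0.18 ± 0.30 and -0.56 ± 0.27 (adjusted p of 0.725 and 0.148) and the 5.8S sum 0.31 ± 0.31 and -0.04 ± 0.28 (adjusted p of 0.524 and 0.943). Full-length rows and short copies thus parted: the 3 full-length 28S rows were not called, while 28 other 28S rows were in each of the cell groups.

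The copy at chr5:71850877-71851151, which holds 28S bases 2570 to 2770, had the largest rise in nuc among the rRNA rows of control cells. In siSSB cells a pair of 18S copies, at 3.81 and 3.43 on the log2 scale, were above it, both with siSSB nuc replicate 2 far above the other nuclear libraries. The 28S copy held 2421, 1632 and 5778 counts in cyto and 9054, 4520 and 12211 in nuc of control cells, and 3070, 3264 and 2178 in cyto and 6562, 12999 and 6945 in nuc of siSSB cells. The raw counts overlapped in control cells and were all higher in nuc in siSSB cells, while nuclear libraries held fewer counts on the full-length 28S rows. The difference was 3.50 ± 0.38 in control (adjusted p = 5.33e-09) and 3.40 ± 0.32 in siSSB cells (adjusted p = 2.95e-09), and 3.03 and 3.24 without the 28S-rich nuclear library of each. Scaled by library size alone it turned to -0.60 and -0.35, but against the median of all features it was 3.52 to 3.77 and 3.45 to 3.61 over 6 scalings. As a percent of the mean full-length 28S row of the same library it was 3.12 to 5.72 in control nuc against 0.42 to 0.92 in cyto, and 4.26 to 5.42 against 0.54 to 0.82 in siSSB cells.

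The copy on chromosome 2, at chr2:202346251-202346398 with 28S bases 4229 to 4324, went the other way. Its counts were 6582, 7037 and 8745 in cyto and 638, 330 and 242 in nuc of control cells, and 9824, 7514 and 7762 in cyto and 564, 331 and 462 in nuc of siSSB cells. The difference, nuc against cyto, was -2.30 ± 0.32 and -2.36 ± 0.32 (adjusted p of 5.34e-07 and 1.61e-06), and took 1.39 to 1.82% of a full-length row in control cyto against 0.11 to 0.36% in nuc. The sequences above show that either copy differs from the repeat at few bases, so each ratio can hold true 28S fragments of that stretch as well as reads of the copy, and these cannot be told apart.

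The copy at chr17:35151127-35151256, from the first 28S bases, was higher in nuc by 1.57 ± 0.29 in control (adjusted p = 7.14e-05) and 1.03 ± 0.31 in siSSB cells (adjusted p = 0.0141). It held 22278, 14656 and 31364 counts in cyto and 18771, 15832 and 15963 in nuc of control cells, and 19864, 35704 and 23998 in cyto and 16763, 14811 and 15275 in nuc of siSSB cells. Library size alone turned the control value to -2.58 together with all features. Its raw counts overlapped between the fractions in control cells and were all lower in nuc in siSSB cells, so its direction depends on the scaling.

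Among copies of at least 95% identity, 80 to 1000 aligned nt and a mean of at least 50 counts, 10 of 28S and 2 of 18S, the percent of the full-length row separated nuc from cyto in both cells for 7 of the 28S copies, 1 higher and 6 lower in nuc, and for 1 of the 18S copies, lower. These limits were set after values had been seen, so the counts are a description. A percent of the full-length row has no counterpart over all features, so no such share stands beside them. Several of these 28S copies hold the same or overlapping stretches, so they are not independent of each other. Copies that begin at 28S bases 3653 to 3655 differed by -1.54 and -1.42 on the log2 scale at chr11:77886365-77886630, by -1.70 and -1.68 at chrX:109054060-109054320 and by -1.84 and -1.74 at chr1:237602775-237603262, in control and siSSB cells. A copy of almost the same stretch (bases 3659 to 3827) at chr8:69690188-69690439 did not share this, with -0.03 and -0.23 at 97.0% identity. The copy at chrX:109054362-109054709 (bases 3922 to 4141) was higher in control cells by 1.19 (adjusted p = 0.00222) and had 0.34 in siSSB cells (adjusted p = 0.484). For 18S, the row at chr21:8988147-8988842, 99.7% identical to bases 1 to 578, differed by -1.02 and -1.32 (adjusted p of 0.00925 and 6.03e-04), at 22.2 to 25.2% of the full-length row in control nuc and 42.1 to 52.0% in cyto.

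**Figure D4:**
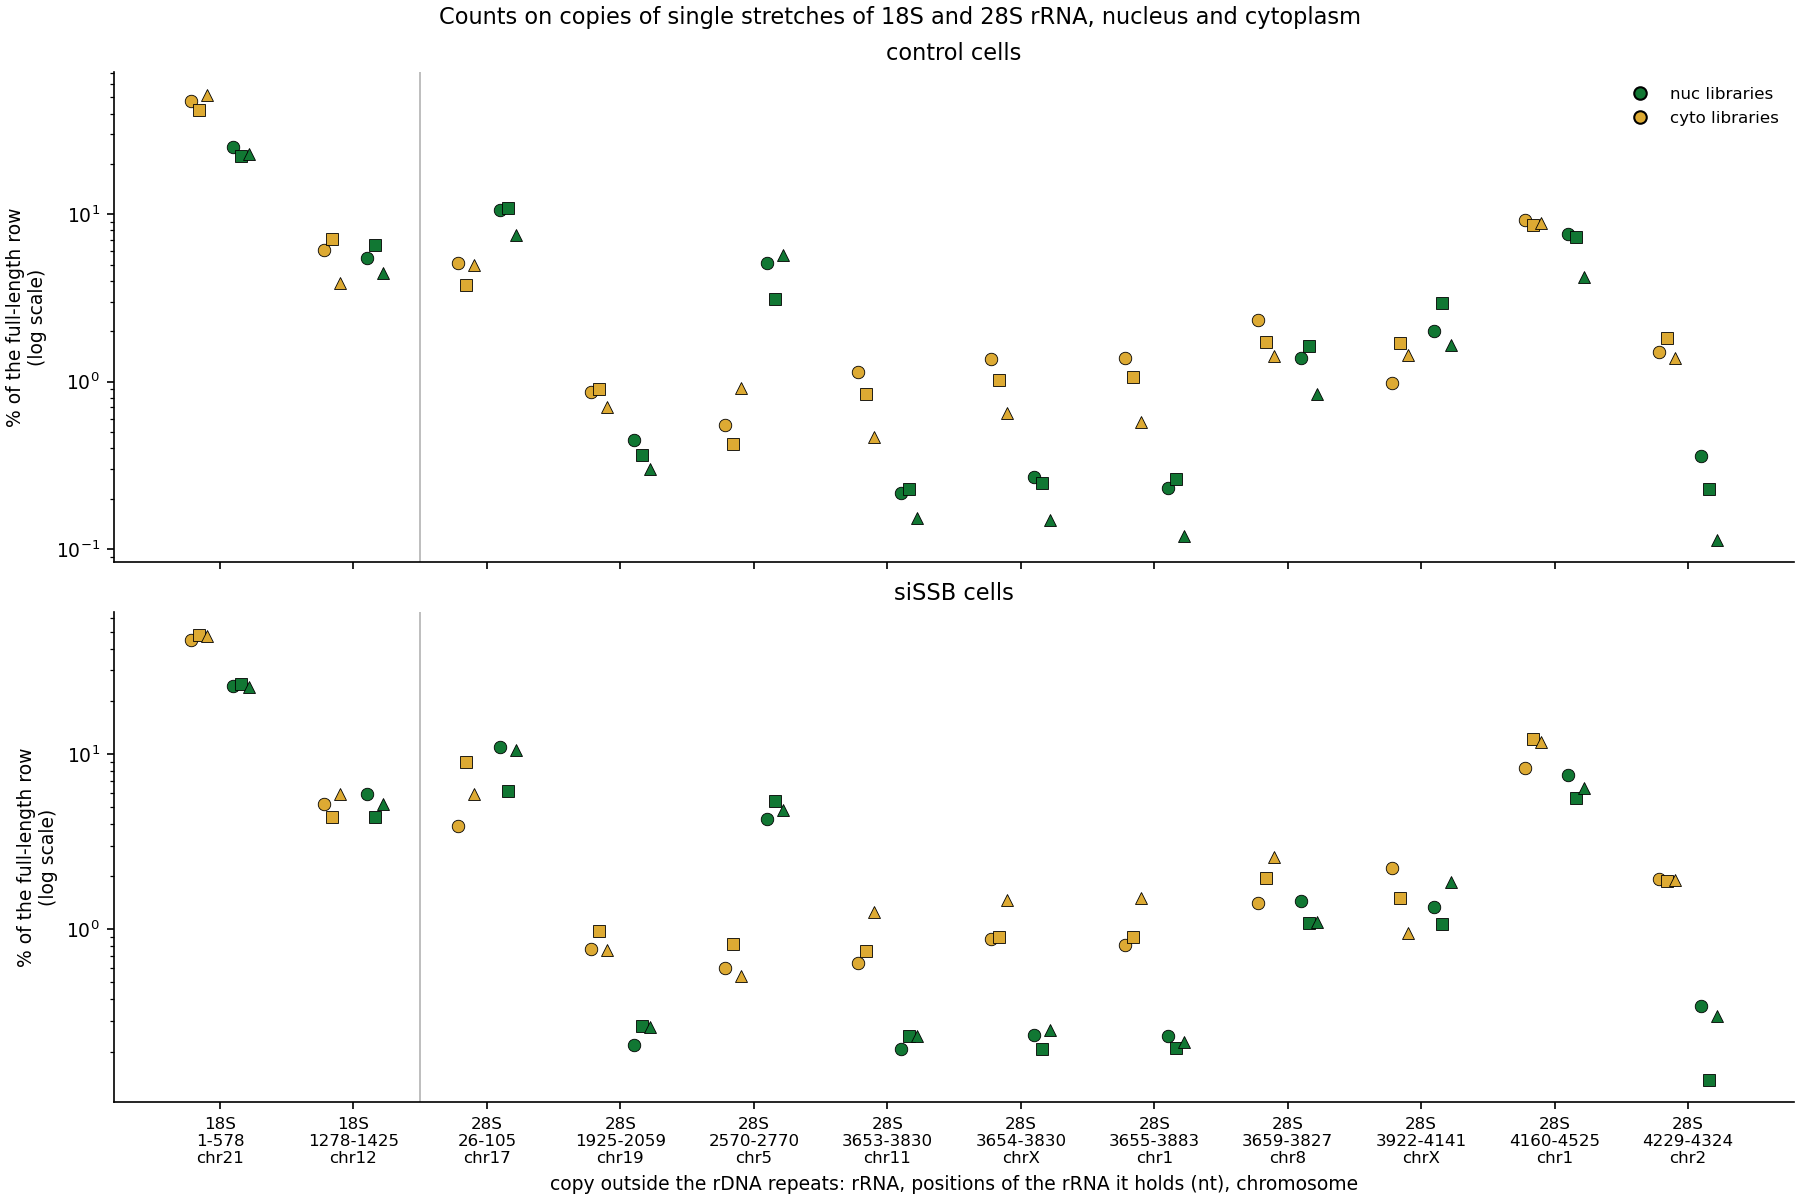
Counts of single copies of 18S and 28S stretches as a percent of the mean of the 3 full-length rows in the same library (log y axis), cyto in yellow and nuc in green, with circles, squares and triangles for replicates 1, 2 and 3 and a panel for each cell group. The copy of 28S bases 2570 to 2770 on chromosome 5 is higher in nuc in both panels, and most other copies that separate the fractions are lower.

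The called 28S rows also fell apart by position along the rRNA, a split drawn after the calls were seen. Of rows within bases 1 to 2825, 19 were tested in control cells with 6 higher and 2 lower in nuc (median -0.30), and 20 in siSSB cells with 5 higher and 4 lower (median -0.74). Of rows within bases 2829 to 5065, 25 were tested in control cells with 1 higher and 19 lower (median -1.88), and 27 in siSSB cells with 0 higher and 19 lower (median -1.62). Several of these rows hold the same stretch, so they are not independent of each other. A long row shows the same side for the first part: chr21:8258109-8260955, which holds bases 26 to 2825 at 99.3% identity, was higher in nuc by 1.39 and 1.05 (adjusted p of 0.00126 and 0.0070). Its counts were 0.541 to 0.679 of the full-length row in control nuc and 0.295 to 0.378 in control cyto, and 0.538 to 0.678 against 0.337 to 0.450 in siSSB cells.

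Within 18S the fractions also differed by position, but here the first part was the lower side in nuc, as the row of bases 1 to 578 above shows. A later stretch was seen in rows that are not rRNA rows themselves. FP236383.2, annotated as a long noncoding RNA on the opposite strand, covers 18S bases 754 to 1676 in each of 3 repeats, and since strand was not used its counts cannot be told apart from those of 18S. Picked after its values were seen, it came to 50.9 to 54.9% of the 18S rows in control nuc and 50.8 to 53.7% in siSSB nuc, but 25.5 to 35.2% in control cyto and 32.1 to 35.0% in siSSB cyto. Total RNA was in between, at 45.9 to 46.8% and 40.7 to 49.0%. Nuc and cyto did not overlap in either of the cell groups, and control and siSSB overlapped in each RNA type.

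Full-length 18S copies outside the repeats, 89.1 to 92.0% identical, can be told from true 18S more often, and 4 of 7 were called lower in nuc in both cells and 0 higher. These copies were picked out after their values had been seen. The one with most counts, at chr2:132254322-132256220, held 18317 to 26267 counts in control cyto and 1347 to 2180 in control nuc, with differences of -1.73 ± 0.30 and -2.14 ± 0.30 on the log2 scale. It came to 10.5 to 19.2% of the mean full-length 18S row in control cyto and 3.60 to 5.53% in control nuc, and to 15.7 to 20.1% against 3.96 to 6.22% in siSSB cells. The copies on chromosomes 14 (chr14:16054553) and 22 (chr22:11250975) were not called in either of the cell groups, at -0.62 and -0.62, and -0.08 and -0.21. The least identical copy, at 89.1%, was not called either, with values above 0 (0.70 in control and 0.48 in siSSB cells).

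The diverged 5.8S copy printed above, at chr14:16057447-16057647 and 90.2% identical, showed the largest fall among 5.8S rows with counts in both fractions. It held 311, 151 and 122 counts in cyto and 7, 3 and 7 in nuc of control cells, and 147, 142 and 307 in cyto and 4, 4 and 2 in nuc of siSSB cells. The difference was -3.22 ± 0.49 in control (adjusted p = 3.20e-06) and -4.11 ± 0.50 in siSSB cells (adjusted p = 2.52e-07). The 5.8S copy at chr22:11249784 gave -3.18 and -3.88. Compared with the 4 identical 5.8S rows, both copies stayed under 1% in every nuclear and cytoplasmic library.

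Among the other rows named by the rule, several had few counts or rested on 1 library. 28S at chr19:41563589-41565477 (bases 4285 to 4785, 80.2% identity) held 1431, 1971 and 1701 counts in control cyto and 76, 40 and 17 in control nuc, with differences of -3.40 ± 0.38 and -3.98 ± 0.42 in control and siSSB cells (adjusted p of 1.29e-08 and 2.42e-08). 28S at chr11:111821080-111821481 had 33, 38 and 34 counts against 0, 1 and 1 (-3.68 ± 0.75, adjusted p = 2.70e-04). These 2 rows hold neighbouring stretches of 28S. 28S at chr16:47504717-47505088 was higher in control nuc by 2.38 ± 0.56 (adjusted p = 0.00135), with 27, 29 and 95 counts in cyto and 16, 17 and 140 in nuc. Without control nuc replicate 3 it was 0.40 with an adjusted p of 0.585, so 1 library decided the call.

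In siSSB cells a pair of 18S copies were also higher in nuc, with siSSB nuc replicate 2 the highest nuclear library, and the call of the first copy stayed without it. The copy at chr5:175114709-175115250 held 222, 87 and 93 counts in cyto and 180, 1079 and 86 in nuc, with a difference of 3.43 ± 0.56 (adjusted p = 2.15e-05) that fell to 1.99 (adjusted p = 0.00195) without siSSB nuc replicate 2. The copy at chr5:10373777-10374822 held 6, 5 and 4 counts in cyto and 6, 57 and 4 in nuc, again with replicate 2 far above the others (3.81 ± 0.63, adjusted p = 3.10e-05), and was not tested with any 1 nuclear library left out, since it then had too few counts. Rows with no nuclear count were 28S at chr6:134674500-134674899, with 14, 6 and 22 counts in siSSB cyto, which is at least 1.33-fold lower in nuc with a floor of 3 counts per library, and a pair of 5.8S copies at chr2:132253129-132253330 (6, 11 and 7 counts in control cyto) and chr20:29297070-29297271 (11, 8 and 11 in siSSB cyto), for which depth allows no fold.

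Counts of the precursor rows outside the mature rRNAs, that is in the spacers, were taken from the rows RNA45SN1, RNA45SN2 and RNA45SN3 less the 18S, 5.8S and 28S rows inside them, a measure chosen after values had been seen. They were 7.85 to 10.1% of the precursor rows in control nuc and 8.97 to 12.6% in siSSB nuc, 1.54 to 2.77% in control cyto and 1.88 to 3.61% in siSSB cyto, and 2.60 to 2.80% and 2.46 to 3.54% in total RNA. Nuclear libraries thus all held more spacer counts per rRNA count than cytoplasmic ones. The window of the microRNA gene MIR3687 lies in the spacer before 18S in the RNA45SN2 and RNA45SN3 repeats. Of the spacer counts of those 2 repeats it held 51.4 to 60.9% in control cyto and 54.8 to 59.5% in siSSB cyto, but 5.33 to 6.97% and 5.61 to 6.54% in nuc. Without that window, the spacer share of the same 2 repeats was 7.49 to 9.77% and 8.61 to 12.2% in nuc against 0.898 to 1.37% and 1.03 to 1.81% in cyto. Control and siSSB overlapped in nuc, cyto and total RNA.

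**Figure D5:**
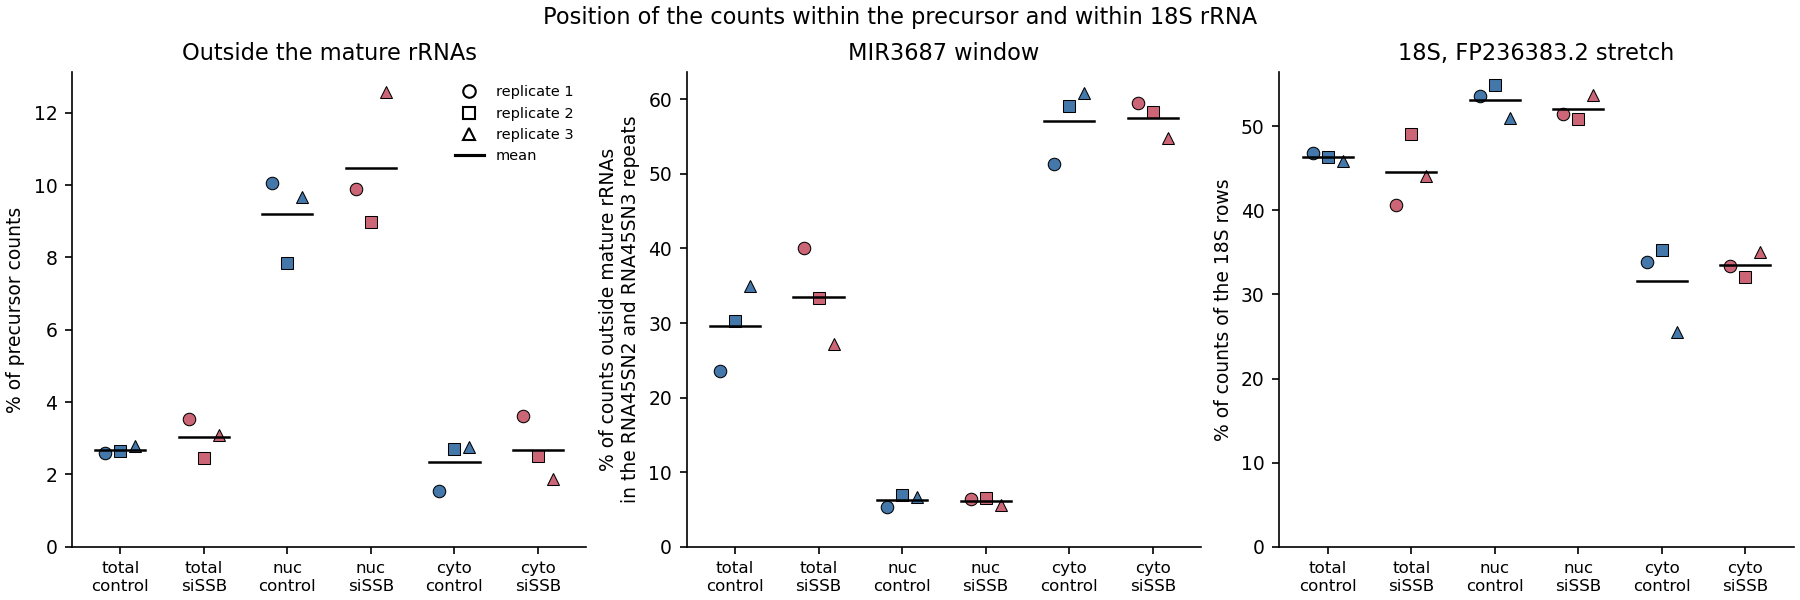
Where counts lie within the rRNA precursor, by library and group, with circles, squares and triangles for replicates 1, 2 and 3 and a line at the mean: percent of precursor counts outside the mature rRNAs (left), percent of those of RNA45SN2 and RNA45SN3 that lie in the MIR3687 window (middle) and counts of FP236383.2 as a percent of the 18S rows (right). Nuclear libraries are highest in the left and right panels, with up to 12.6% outside the mature rRNAs, and lowest in the middle panel.

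RNAs related to these rRNAs were examined as a list of 24 matched rows or sums, 23 of them tested. It held the precursor rows, small nucleolar RNAs that act on rRNA, RMRP of the RNase MRP enzyme, 5S rRNA and the mitochondrial rRNAs. None passed the knockdown test in total, nuc or cyto, with smallest adjusted p of 0.158, 0.183 and 0.824. Between the fractions 19 were higher in nuc and 0 lower in both cells, with medians of 3.21 in control and 2.89 in siSSB cells. Of all tested features 9.21% were higher and 14.1% lower in control cells, and 10.8% and 14.5% in siSSB cells. Most of the list are small nucleolar RNAs, the class that marked the nuclear fraction above, so the count largely repeats that marker. U3 (SNORD3A), needed for the cuts that free 18S, gave 3.65 and 3.39, U8 (SNORD118), needed for 5.8S and 28S, 4.66 and 4.44, and U13 (SNORD13) 7.29 and 7.27. By library size alone U3 turned to -0.53 and -0.39, still above the medians of all features on that scale, which were -4.33 and -3.96. The precursor rows were not called, at 0.53 to 0.54 and 0.38 to 0.39, and since they contain the mature rRNAs most of their counts are those of the sums.

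5S rRNA was called between the fractions, and its partners of the large subunit were not. 5S was not tested against them. Its sum was higher in nuc by 1.62 ± 0.32 in control (adjusted p = 1.54e-04) and by 0.85 ± 0.29 in siSSB cells (adjusted p = 0.0303), where 28S and 5.8S were not called, and by library size alone it was -2.54 and -3.0. Against the median of all features it was 1.76 to 1.90 and 0.93 to 1.04 over 6 scalings. The siSSB call was lost without siSSB cyto replicate 1 or 3 or siSSB nuc replicate 1, with DESeq2 (adjusted p = 0.0597), with no filter on low counts (0.666), with the miRNA total as scaling (0.631) and with a replicate block (0.121). The control call was lost with the miRNA total (1.06, adjusted p = 0.433). Of the mitochondrial rRNAs, MT-RNR2 was higher in nuc by 1.5 and 1.02, and MT-RNR1 was not called, at -0.04 and -0.33.

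Across the 18 libraries, on log2(CPM + 1), the sum of 18S ran closest to RN7SK (Pearson r = 0.944), MT-TD (0.940) and NONHSAG053897.2 (0.929) among 4077 features. The 28S sum ran closest to NONHSAG053892.2, a mitochondrial feature (0.790), lnc-HACL1-7 (0.756) and lnc-BTD-2 (0.755). For 5.8S they were tRNA-Asn-GTT-10-1 (0.931), lnc-HIST1H2AH-1 (0.921) and tRNA-Val-CAC-9-1 (0.921). Some of these overlap. lnc-HIST1H2AH-1 encloses tRNA-Val-CAC-9-1, with mean counts of 135.9 and 135.2. lnc-HACL1-7 encloses lnc-BTD-2, which is also annotated as signal recognition particle RNA, with means of 636.7 and 632.7. Each pair thus counts largely the same reads. NONHSAG053892.2 (chrM:1682-4286) overlaps the mitochondrial rRNA MT-RNR2 (chrM:1646-3254), with mean counts of 45033 and 50046, so these 2 rows share reads. Between the sums r was -0.16 for 18S and 28S, 0.50 for 18S and 5.8S and 0.13 for 28S and 5.8S. These values describe 18 libraries of 3 RNA types that share library size and scaling, and no test goes with them.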

How the data were processed

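Small RNA-seq libraries of HEK293T cells (control and siSSB; total, nuc and cyto; n = 3 each) were grouped by their titles. The authors deposited raw counts, whole numbers of reads per annotated noncoding RNA, with no normalization; the labels name Bowtie2, bedtools and hg38 without versions. How reads with several positions were assigned is not given in the sources used here. Rows carry 25 nt flanks, strand was not used in counting, and a read counts in each overlapping row, so rows that share a stretch share reads. The members and lists were chosen with earlier results of these data known.

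Rows were aligned with BLAST 2.17.0 to the 18S, 28S and 5.8S sequences of hg38, taken from the reference genome. Counts were tested with edgeR 4.0.16 (limma 3.58.1, R 4.3.3), with TMM factors, filterByExpr and the quasi-likelihood F-test, each comparison on its own 6 libraries and the difference of knockdown effects on the 12 fraction libraries. Benjamini-Hochberg adjustment ran over all features tested, sums included, and an adjusted p under 0.05 was called. P-values measure the spread between these libraries, and whether the replicates are separate cultures is not stated in the labels beyond the word biological. Ratios were compared by exact permutation tests in SciPy 1.17.1. DESeq2 1.42.0, other scalings, filters, the replicate block and leaving out each library were tried as alternatives. Floors of 3 counts cover counting error only, since no molecular identifiers were described. The model was tested on simulated counts.

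Named rows were the 3 with the highest mean per rRNA and, for each comparison, up to 3 rising and 3 falling called rows with the largest log2 fold change; other rows named in the text were chosen after their values were seen. Same-numbered libraries deviated together in the control nuc and cyto groups alone (r of 0.13, 0.20 and 0.15 over 4301 features, each best with its own number), and a replicate block there called 41 rRNA rows (10 higher, 31 lower) in place of 39 and changed no call of a sum. Over all features that block called 5939 of 26774.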

Additional observations from a re-analysis of the deposited data

How the results depend on the processing

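The 0 calls of rRNA rows after knockdown held in nuc and cyto under all 6 scalings, and in total RNA under TMM and RLE size factors but not under the other 4. Depth limits the 46 rows with a mean under 50 counts, and interval widths come from 3 libraries per group. Of 234 alternative values of the knockdown and interaction sums, 196 kept their direction and side of the threshold, 36 changed sign, 2 of these past the threshold, and 2 newly passed in the same direction. The cause was not tested where none is given.

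With library size alone, 5 rRNA rows were called in total RNA, all higher. Between fractions 74 and 76 were called in control and siSSB cells, all lower. Over all features, 624 of 13883 were higher and 88 lower in total RNA. Between fractions 25770 of 26774 features were lower in control and 25211 of 26274 in siSSB cells. Knockdown values became 0.62 (18S, adjusted p = 0.0386), 0.60 (28S, adjusted p = 0.0371) and 0.062 (5.8S) in total, 0.25 and 0.29 (18S, 28S) in nuc, 0.027 (28S) in cyto and 0.26 for the 28S interaction. Nuc against cyto became -4.33, -3.49 and -3.82 (18S, 28S, 5.8S), -0.60, -1.68 and -2.58 (28S copies on chromosomes 5, 16 and 17), -2.54 (5S) and -0.53 (SNORD3A) in control, and -4.36, -3.23 and -3.86, -0.16 (18S at chr5:175114709), -0.35 (28S on chromosome 5), -3.0 (5S) and -0.39 (SNORD3A) in siSSB cells, where all features shifted to medians of -4.33 and -3.96.

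With the total of small nucleolar RNAs, 15 rows were called in total RNA, all higher, and 75 and 79 between fractions, all lower. Over all features, 652 of 13883 were higher and 49 lower in total RNA. Between fractions 26108 of 26774 features were lower in control and 25647 of 26274 in siSSB cells. Knockdown values became 0.79 (18S, adjusted p = 2.97e-06), 0.78 (28S, adjusted p = 7.75e-10) and 0.21 (5.8S) in total, 0.19 and 0.22 (18S, 28S) in nuc, 0.20 and 0.046 (28S, 5.8S) in cyto and 0.022 for the 28S interaction. Nuc against cyto became -6.14, -5.31 and -5.60, -2.36, -3.41 and -4.39 (the 28S copies), -4.35 (5S), -2.36 (SNORD3A) and -1.25 (SNORD118) in control, and -6.40, -5.29 and -5.89, -1.81 and -2.24 (18S at chr5:10373777 and chr5:175114709), -2.38 (28S on chromosome 5), -5.06 (5S), -2.44 (SNORD3A) and -1.44 (SNORD118) in siSSB cells.

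With the total of all RNA classes, 3 rows were called in total RNA, all higher, and 74 and 76 between fractions. Over all features, 678 of 13883 were higher and 140 lower in total RNA. Between fractions 25672 of 26774 features were called in control and 24139 of 26274 in siSSB cells. Values became 0.41 (28S, total), 0.16 and 0.20 (18S, 28S, nuc), 0.0015 (28S, cyto) and 0.20 (28S interaction), and between fractions -2.51, -1.68 and -2.01, -0.76 (28S on chromosome 17) and -0.72 (5S) in control and -2.60, -1.48 and -2.09 and -1.23 (5S) in siSSB cells. With the miRNA total, 5 rows were called in total RNA, all lower, where 3633 of 13883 features were lower and 9 higher. Between fractions in siSSB cells 21 rows were called (3 higher, 18 lower), beside 3963 of 26274 features. The 18S sum became -0.64 in total, 0.13 in nuc and -0.041 in cyto, 28S 0.17 in nuc, 5.8S -0.33 between control fractions, and the interactions 0.17, 0.43 and 0.24 (18S, 28S, 5.8S). With no filter beyond 1 count, 1, 4 and 2 rows were called higher in total, nuc and interaction. Over all features 630 of 114675, 67 of 92966 and 12 of 131987 were called there. The 5.8S sum was then -0.18 between control fractions. Taking rows with RNA names or the highest row for the sum, 18S between control fractions was 0.0021 and 0.012.

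Leaving out 1 library moved the 28S to 18S knockdown difference from -0.086 to 0.22 in nuc and from -0.15 to 0.022 in total, and that of 5.8S to 28S in cyto from -0.35 to 0.052. Knockdown sums ran from -0.034 to 0.20 (18S, cyto), -0.27 to 0.12 (28S, nuc), -0.0046 to 0.16 (18S, total), -0.073 to 0.070 (28S, total) and -0.22 to 0.16 (28S interaction). Called rows ran from 0 to 2 in nuc (2 without siSSB nuc replicate 3, where 37 of 8144 features were called). For the interaction they ran from 0 to 2. The 2 came without control cyto replicate 3 (24 of 48440 features called) or siSSB cyto replicate 3 (22 of 48727). Between fractions 28S ran from 0.42 to 0.83 in control and 5.8S from -0.20 to 0.081 in siSSB cells.

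Over all features, with all libraries and the stricter adjusted p included, the count called ran from 4 to 3642 in total (185 as tested), 0 to 67 in nuc (26), 2 to 250 in cyto (55) and 2 to 12 for the interaction (5), from 4588 to 26435 in control and from 3963 to 25876 in siSSB cells between fractions. With 1 library left out it ran from 70 (control total replicate 2) to 301 (siSSB total replicate 3) in total, from 0 (siSSB nuc replicate 2) to 37 in nuc, from 2 (siSSB cyto replicate 1) to 46 in cyto, and from 1 (control nuc replicate 3) to 24 (control cyto replicate 3) for the interaction. In the other comparisons than control fractions same-numbered libraries had correlations of -0.82 to 0.37. With a replicate block there, 40 features were called in nuc and 4 in cyto, 0 rRNA rows in each knockdown, 41 rows between siSSB fractions, and the siSSB 5S sum (0.84) had an adjusted p of 0.121. Between siSSB fractions that block called 6420 of 26274 features.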
